A study of Homo sapiens with 6 samples.

Results

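A set of 10 genes of the YAP/TEAD pathway was followed in PC-3 cells with reduced MTA1, a subunit of the NuRD chromatin-remodelling complex. They were taken by symbol from the table of 30651 genes: YAP1, WWTR1, TEAD1, LATS2, AJUBA, AMOTL1, AMOTL2, CCN1, CCN2 and ANKRD1. All 10 were found and all 10 passed the filter on low counts, among 15423 genes tested. PC-3 is an established human prostate cancer line, isolated from a metastasis in bone. The MTA1 group (3 libraries, data columns prefixed shMTA1, the usual mark of a short hairpin RNA) was compared with the Ctrl group (3 libraries, columns prefixed NC). Both groups are PC-3 cells grown in DMEM/F12 with fetal bovine serum, and the labels list, for both, the preparation of lentivirus, a transfection step and a screen for stable clones. They do not give the number of hairpins or clones, nor whether a group's libraries are separate cultures. Every p-value is thus set against the variation among these libraries, possibly only technical.

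YAP1 and its paralog TAZ, the product of WWTR1, are transcriptional coactivators without a DNA-binding domain of their own. In the nucleus they bind TEAD factors, which sit on DNA at the core motif GGAATG, and raise genes such as CCN1, CCN2 and ANKRD1. The Hippo kinases LATS1 and LATS2 phosphorylate both coactivators, which are then held in the cytoplasm or degraded, and motin proteins such as AMOTL1 and AMOTL2 bind them directly. AJUBA, a LIM-domain scaffold, inhibits the LATS kinases, and LATS2 and AMOTL2 are themselves known YAP targets, so that the pathway holds feedback loops. These activities are set largely by protein phosphorylation and location, which RNA counts do not measure.

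The promoters of 3 members with different outcomes are shown because they carry the core motif that TEAD factors read. Each window spans 250 bases before to 50 after a transcription start and is written 5′ to 3′ along the gene (RefSeq, GRCh38.p14). Capitals mark GGAATG or its reverse complement CATTCC, the letters searched on both strands.
CCN2, chr6:131951323-131951622 (minus strand): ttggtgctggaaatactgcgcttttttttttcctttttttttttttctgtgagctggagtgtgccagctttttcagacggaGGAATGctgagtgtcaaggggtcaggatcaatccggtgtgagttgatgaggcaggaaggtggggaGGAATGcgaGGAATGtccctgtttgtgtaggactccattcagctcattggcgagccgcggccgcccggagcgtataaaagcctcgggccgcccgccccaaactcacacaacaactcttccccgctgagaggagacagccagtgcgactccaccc
ANKRD1, chr10:90921038-90921337 (minus strand): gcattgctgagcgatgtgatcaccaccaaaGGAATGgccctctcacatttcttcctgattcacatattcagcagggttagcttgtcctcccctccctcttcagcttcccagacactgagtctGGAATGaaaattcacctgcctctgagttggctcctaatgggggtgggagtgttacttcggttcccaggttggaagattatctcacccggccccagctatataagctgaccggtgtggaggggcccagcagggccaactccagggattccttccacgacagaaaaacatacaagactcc
AJUBA, chr14:22976793-22977092 (minus strand): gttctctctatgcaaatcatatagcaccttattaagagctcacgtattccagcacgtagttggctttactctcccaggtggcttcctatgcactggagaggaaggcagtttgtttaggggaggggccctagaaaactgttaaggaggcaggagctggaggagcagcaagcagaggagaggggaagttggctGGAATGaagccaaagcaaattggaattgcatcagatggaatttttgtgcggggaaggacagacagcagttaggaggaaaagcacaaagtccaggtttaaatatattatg

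CCN2 held 3 copies, starting at positions -169, -104 and -95 relative to the first transcribed base. ANKRD1 held 2 copies, at -220 and -128, and the second of AJUBA's listed starts held 1, at -59. Among 35116 promoter windows of the same length, 14% held at least 1 copy, 1.37% at least 2 and 0.128% at least 3. No window was listed for CCN1 or TEAD1, so their promoters were not searched. Windows were listed for the other 8 of the 10 genes, and 6 of these had a copy in at least 1 window. WWTR1, AJUBA and AMOTL2 had 2 windows each, so this count by gene cannot be set against the shares by window. A single copy stood before YAP1 (-162) and before the second listed start of AMOTL2 (-69), and in LATS2 it lay after the start (10). No copy stood in the windows of WWTR1 and AMOTL1, nor in those of the first listed starts of AJUBA and AMOTL2. A match of letters describes the window and is not a measured binding site.

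The libraries held 29909172 to 30938820 counts in the MTA1 group and 31726013 to 33849262 in Ctrl. MTA1 itself stood at 17.3, 18.0 and 16.7 CPM in the MTA1 group, against 38.3, 40.6 and 41.1 CPM in Ctrl, which left 43.4% of the control level. CPM is the count relative to the TMM-scaled library size. The keratins KRT8 and KRT18 were abundant, at 1541 and 1267 CPM in the MTA1 group and 1886 and 1343 CPM in Ctrl. KLK3, which is known to be silent in PC-3 cells, had at most 1 read in a library. Of the 8 fibroblast markers listed, none was at 0 in all libraries, and their sum was 36.2 to 38.3 CPM in the MTA1 group and 49.4 to 55.3 CPM in Ctrl. The 7 leukocyte markers listed summed to 2.33 to 2.66 CPM in the MTA1 group and 3.66 to 3.74 CPM in Ctrl. PTPRC, the defining gene of leukocytes, had at most 3 reads in a library. The part of these differences in the results was not tested.

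The 10 genes did not move as a block. In edgeR's quasi-likelihood test with a threshold of 0.05 on the adjusted p, 4 fell (CCN2, CCN1, TEAD1 and YAP1), 2 rose (AJUBA and WWTR1) and 4 did not pass (ANKRD1, AMOTL2, AMOTL1 and LATS2). In bulk RNA, fewer cells with a transcript and less of it per cell cannot be told apart. Of all tested genes 58.1% passed, 29.5% as higher and 28.6% as lower, so 6 of 10 is close to the background. Their median log2 fold change was 0.05, against 0.002 over all tested genes, and it became -0.03 without MTA1 replicate 1 and -0.07 without Ctrl replicate 1. The libraries of the groups did not overlap in 8 of the 10 genes, against 62.7% of all tested genes. A test against a fold of at least 1.2 was added once the values were known, and in it CCN2, CCN1 and AJUBA passed, beside 30.1% of all tested genes. On the FPKM scales the split was 4 higher and 2 lower, because YAP1 and TEAD1 no longer passed there and AMOTL2 and ANKRD1 did. Of all genes called on those scales 60.1% and 60.3% were higher, against 50.8% in the TMM-scaled test.

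**Figure D1:**
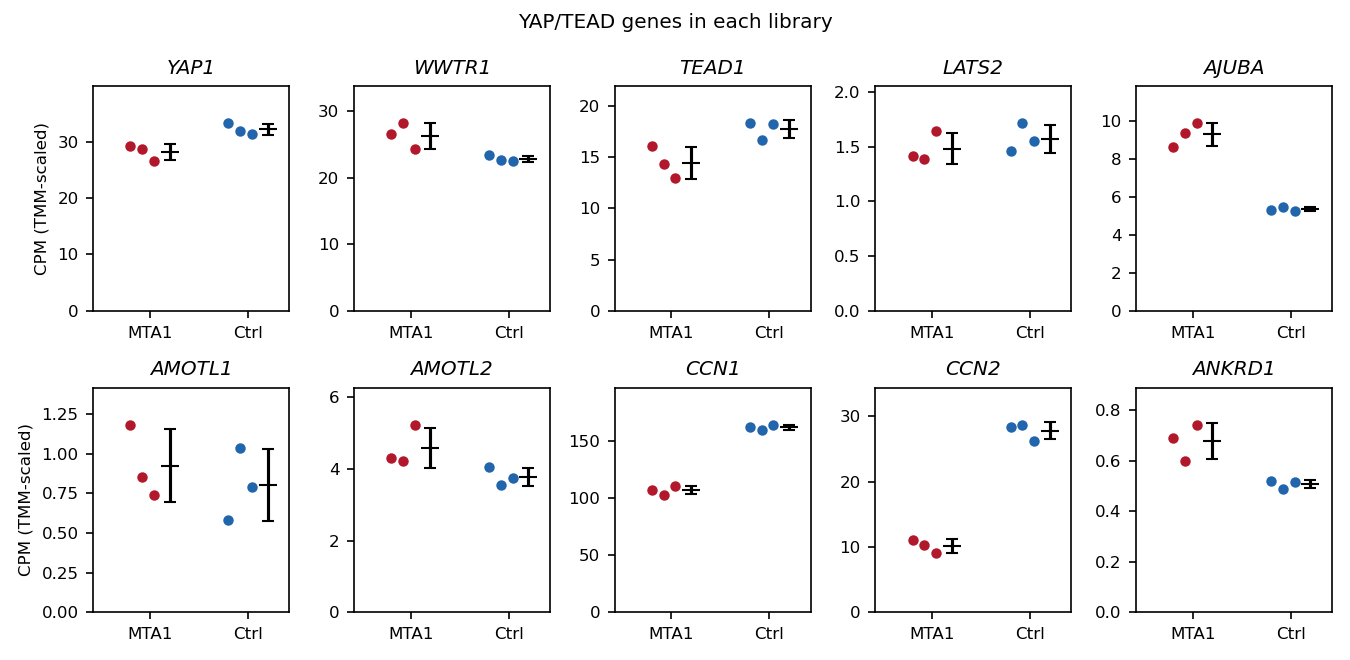
Level of each of the 10 genes in CPM (vertical axis, from 0), with each library as a point and the mean ± SD (n = 3) beside it, MTA1 group in red and Ctrl in blue. The points of LATS2 and AMOTL1 overlap between the groups and those of the other 8 genes do not.

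The secreted targets CCN2 and CCN1 were lower in the MTA1 group. CCN2, or connective tissue growth factor, is a matricellular protein and a standard readout of YAP activity. It stood at 11.1, 10.3 and 9.09 CPM in the MTA1 group, against 28.3, 28.6 and 26.3 CPM in Ctrl. Every MTA1 library lay far below the lowest Ctrl library. The level left was 36.7% of Ctrl (log2 fold change -1.45 ± 0.069 SE, edgeR adjusted p = 9.7e-13), and 1.25% of tested genes fell by at least as much.

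CCN1, or CYR61, is the closest relative of CCN2 in use as a YAP readout and binds integrins on the cell surface. It stood at 107, 103 and 110 CPM in the MTA1 group, against 162, 160 and 164 CPM in Ctrl. The groups lay far apart relative to their spread, and 66.0% of the Ctrl level was left (-0.60 ± 0.040, edgeR adjusted p = 1.4e-10). The fall of CCN1 was smaller than that of CCN2 in every pairing of libraries, as their ratio shows. Per length, CCN1 was 6.66 times CCN2 in the MTA1 group and 3.70 times in Ctrl. The log2 ratio was 2.60, 2.66 and 2.94 in the MTA1 libraries, against 1.85, 1.82 and 1.98 in the Ctrl libraries (exact permutation test, 2-sided p = 0.1, the smallest that 3 against 3 libraries allow).

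ANKRD1, a muscle ankyrin repeat protein and another standard YAP target, did not follow CCN1 and CCN2. It was near the detection limit, with 21, 19 and 23 counts in the MTA1 group, against 16, 16 and 17 counts in Ctrl. That is 0.689, 0.599 and 0.741 CPM in the MTA1 group and 0.518, 0.489 and 0.517 CPM in Ctrl. Each MTA1 library lay above each Ctrl library, yet the counts were too few for the test (0.41 ± 0.27, edgeR adjusted p = 0.20). The 95% interval ran from 0.904-fold to 1.96-fold. The gene passed as higher on both FPKM scales (limma adjusted p = 0.018 with a pseudocount of 0.1 and 0.015 with 1). There the counts are not used, and counting error enters only through the spread of the values and its trend with level.

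The other members of the CCN family that were measured moved the opposite way to CCN1 and CCN2. CCN3, or NOV, averaged 19.3 ± 0.392 CPM in the MTA1 group and 8.87 ± 0.325 CPM in Ctrl (SD, n = 3 each, log2 fold change 1.13 ± 0.065). CCN5, or WISP2, averaged 43.1 ± 1.71 CPM in the MTA1 group and 28.3 ± 1.31 CPM in Ctrl (0.61 ± 0.053). Both rose, with edgeR adjusted p of at most 6.6e-09. CCN4 had at most 4 reads in a library and was not tested.

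**Figure D2:**
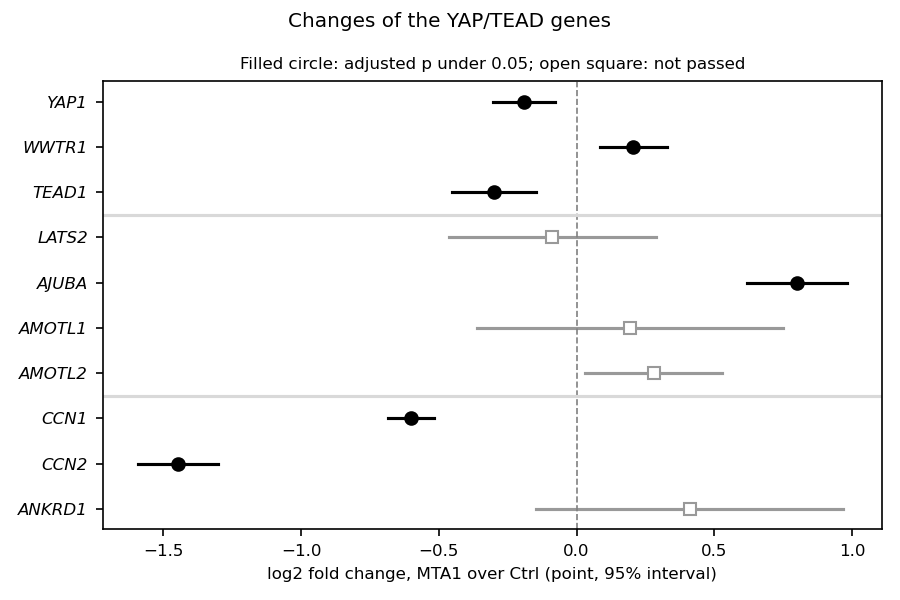
Log2 fold change of the MTA1 group over Ctrl (horizontal axis) for the 10 genes, ordered from top to bottom as coactivators and TEAD1, upstream and feedback genes, and targets. Bars are 95% intervals of the quasi-likelihood fit. The interval of CCN2 runs from -1.59 to -1.30, and those of LATS2, AMOTL1 and ANKRD1 include 0.

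The coactivators changed little and in opposite directions. YAP1 stood at 29.2, 28.7 and 26.6 CPM in the MTA1 group, against 33.2, 31.9 and 31.3 CPM in Ctrl. The groups did not overlap, and 87.6% of the Ctrl level was left (-0.19 ± 0.053, edgeR adjusted p = 0.0046). WWTR1 stood at 26.6, 28.2 and 24.3 CPM in the MTA1 group, against 23.4, 22.7 and 22.5 CPM in Ctrl. Its lowest MTA1 library lay just above its highest Ctrl library (0.21 ± 0.059, edgeR adjusted p = 0.0052). The fall of YAP1 did not pass with scaling by library size alone (adjusted p = 0.057) or on the FPKM scales (0.078 and 0.081).

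Per length, YAP1 remained the more abundant coactivator. It had 4.04 ± 0.174 FPKM in the MTA1 group and 4.39 ± 0.120 FPKM in Ctrl, and WWTR1 had 2.85 ± 0.196 FPKM in the MTA1 group and 2.36 ± 0.0404 FPKM in Ctrl. The ratio of YAP1 to WWTR1 was 1.42 in the MTA1 group and 1.86 in Ctrl. On the log2 scale it was 0.54, 0.43 and 0.54 in the MTA1 libraries, against 0.91, 0.89 and 0.88 in the Ctrl libraries. The ratios did not overlap (exact permutation test, 2-sided p = 0.1, the smallest possible), and unlike a single level they do not depend on how libraries are scaled.

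TEAD1, a DNA-binding partner of the coactivators, fell modestly. It stood at 16.0, 14.3 and 13.0 CPM in the MTA1 group, against 18.3, 16.7 and 18.3 CPM in Ctrl. The groups did not overlap, though the highest MTA1 library and the lowest Ctrl library were close (-0.30 ± 0.073, edgeR adjusted p = 0.0016). The call was lost on the FPKM scales (adjusted p = 0.066 and 0.064). TEAD1 was the least abundant of the 4 TEAD genes per length, with 1.22 ± 0.125 FPKM in the MTA1 group and 1.43 ± 0.0635 FPKM in Ctrl.

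TEAD4 supplied most of the TEAD message. Its level was 7.97 ± 0.364 FPKM in the MTA1 group and 8.49 ± 0.273 FPKM in Ctrl. It made up 58.6% to 60.5% of the summed TEAD1 to TEAD4 FPKM in the MTA1 group and 62.7% to 65.1% in Ctrl (exact permutation test, 2-sided p = 0.1). In counts TEAD4 fell slightly (-0.16 ± 0.057, edgeR adjusted p = 0.022), a call lost with DESeq2 (adjusted p = 0.064), with scaling by library size (0.19) and without MTA1 replicate 1 (0.067) or 3 (0.061) or Ctrl replicate 3 (0.080). The call was also lost on both FPKM scales (limma adjusted p = 0.137 and 0.139) and in edgeR with no filter on low counts (0.059). TEAD2 (0.19 ± 0.096) and TEAD3 (0.21 ± 0.092) did not pass, but both passed as higher with scaling by library size (adjusted p = 0.027 and 0.015) and on the FPKM scales. The share of TEAD1 was 9.16 ± 0.935% in the MTA1 group and 10.7 ± 0.692% in Ctrl, with overlapping libraries (exact permutation test, 2-sided p = 0.2).

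The largest change near the TEAD factors was in VGLL4, a vestigial-like protein known to compete with YAP for TEAD binding. It averaged 14.9 ± 1.60 CPM in the MTA1 group and 31.3 ± 0.913 CPM in Ctrl and fell by 1.07 ± 0.065 on the log2 scale (edgeR adjusted p = 3.5e-11). VGLL3, a related cofactor, averaged 4.72 ± 0.165 CPM in the MTA1 group and 5.66 ± 0.181 CPM in Ctrl (-0.26 ± 0.097, edgeR adjusted p = 0.027), and this call was lost with DESeq2 (adjusted p = 0.095). It was also lost without Ctrl replicate 1 (0.070) or 3 (0.056) or MTA1 replicate 1 (0.054) or 2 (0.092). Scaling by library size (0.096), both FPKM scales (0.19 and 0.15) and testing with no filter on low counts (0.058) ended it as well. VGLL1 and VGLL2 had too few reads to be tested. Of the 5 tested TEAD and VGLL genes besides TEAD1, 3 fell and none rose in the TMM-scaled test, against 28.6% and 29.5% of all tested genes. The direction of this count depended on the scaling, since 2 were higher and 1 lower with scaling by library size and on both FPKM scales. With DESeq2 none was higher and 1 was lower. Of all genes called, 60.1% were higher with scaling by library size, and 60.1% and 60.3% on the FPKM scales.

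**Figure D3:**
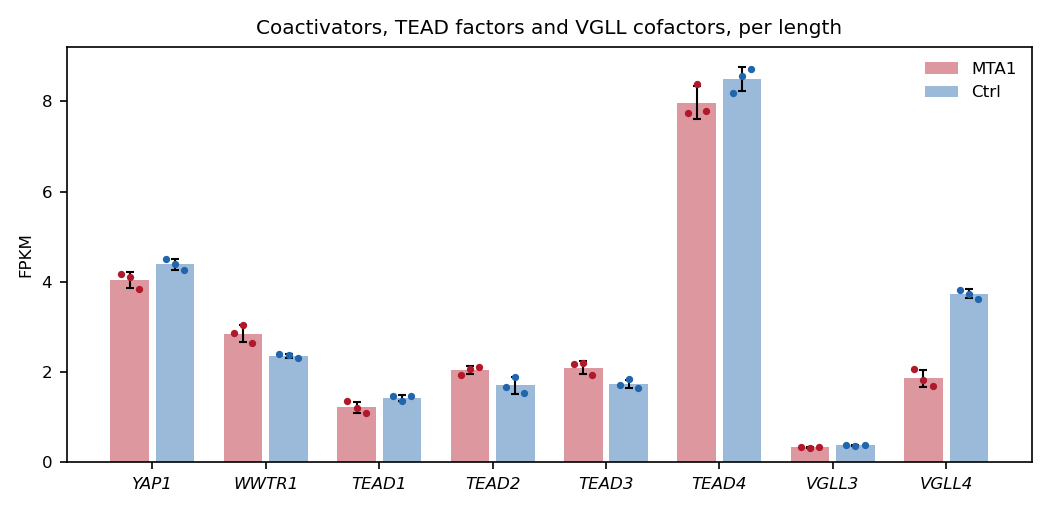
Level in FPKM (vertical axis, from 0) of the coactivators, the TEAD factors and the VGLL cofactors, with bars at the mean, whiskers ± SD (n = 3) and points for libraries, MTA1 group left of Ctrl. TEAD4 is the highest at 7.97 FPKM in the MTA1 group and 8.49 FPKM in Ctrl, and VGLL4 shows the widest gap, with 1.87 FPKM in the MTA1 group and 3.73 FPKM in Ctrl.

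Among the upstream and feedback genes, AJUBA rose. It stood at 8.66, 9.40 and 9.89 CPM in the MTA1 group, against 5.34, 5.47 and 5.26 CPM in Ctrl. The groups were well apart, and the level was 174% of Ctrl (0.80 ± 0.087, edgeR adjusted p = 1.4e-07). Of all tested genes 5.43% rose by at least as much. Of its relatives, TRIP6, a zyxin-family protein that also binds LATS kinases, rose by less (119 ± 2.15 CPM in the MTA1 group and 100.2 ± 2.61 CPM in Ctrl, 0.24 ± 0.041), and LPP fell (-0.41 ± 0.089). LIMD1, WTIP and ZYX did not pass, so 1 of 5 rose and 1 fell, beside 29.5% and 28.6% of all tested genes.

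The motin genes were low in these cells. AMOTL2 stood at 4.30, 4.23 and 5.22 CPM in the MTA1 group, against 4.05, 3.54 and 3.74 CPM in Ctrl. The groups did not overlap, and the gene lay on the threshold (0.28 ± 0.12, edgeR adjusted p = 0.0501, 95% interval 1.02-fold to 1.44-fold). It passed as higher without MTA1 replicate 1 (adjusted p = 0.043) or 2 (0.040), without Ctrl replicate 1 (0.048) and with scaling by library size (0.017). Without MTA1 replicate 3 its log2 fold change was 0.18 (adjusted p = 0.25), and it was farther from passing without Ctrl replicate 2 (0.15) and with DESeq2 (0.14). AMOTL1 had 36, 27 and 23 counts in the MTA1 group, against 18, 34 and 26 counts in Ctrl. These overlapped, and the interval of 0.778-fold to 1.68-fold leaves changes of either sign possible (0.19 ± 0.27, edgeR adjusted p = 0.56). Their relative AMOT had at most 7 reads in a library and was not tested.

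LATS2 did not differ detectably at this depth. It had 43, 44 and 51 counts in the MTA1 group, against 45, 56 and 51 counts in Ctrl, with overlapping libraries (-0.09 ± 0.18, edgeR adjusted p = 0.70, interval 0.725-fold to 1.22-fold). Its paralog LATS1 had 51, 54 and 62 counts in the MTA1 group, against 84, 104 and 64 counts in Ctrl. In CPM the libraries of the groups overlapped, and LATS1 was called lower (-0.54 ± 0.18, edgeR adjusted p = 0.015). That call was lost without Ctrl replicate 2 (adjusted p = 0.11) or MTA1 replicate 2 (0.052) and on the FPKM scales (0.086 and 0.085). Per length, LATS2 was 1.26 times LATS1 in the MTA1 group and 0.928 times in Ctrl (exact permutation test, 2-sided p = 0.1). The log2 ratio was 0.35, 0.29 and 0.36 in the MTA1 libraries, against -0.30, -0.29 and 0.26 in the Ctrl libraries. Ctrl replicate 3 thus lay close to the MTA1 libraries.

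The order of levels per length differed between the groups in the middle of the range. In the MTA1 group it ran CCN1 (26.2 FPKM), YAP1 (4.04), CCN2 (3.94), WWTR1 (2.85), AJUBA (1.43), TEAD1 (1.22), AMOTL2 (0.640), ANKRD1 (0.343), LATS2 (0.240) and AMOTL1 (0.0867). In Ctrl it ran CCN1 (37.8 FPKM), CCN2 (10.2), YAP1 (4.39), WWTR1 (2.36), TEAD1 (1.43), AJUBA (0.787), AMOTL2 (0.507), ANKRD1 (0.247), LATS2 (0.243) and AMOTL1 (0.0700). The libraries of YAP1 and CCN2 and those of AJUBA and TEAD1 overlapped in the MTA1 group, whereas in Ctrl they did not. ANKRD1 and LATS2 could not be told apart in Ctrl. The median tested gene had 1.72 FPKM in the MTA1 group and 1.61 FPKM in Ctrl.

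The pathway lists set the members among 127 other tested genes of the pathway, of which 80 passed, beside 58.1% of all tested genes. The counts by list that follow stand beside 29.5% of all tested genes called higher and 28.6% called lower. The Hippo kinases and their scaffolds went both ways or did not pass. Of 19 tested, 2 rose and 6 fell, and their median change was -0.04 on the log2 scale. WWC3, a KIBRA-family scaffold, averaged 14.3 ± 0.106 CPM in the MTA1 group and 20.1 ± 1.57 CPM in Ctrl (-0.49 ± 0.065), and the kinase cofactor MOB1B (-0.49 ± 0.073) and the upstream kinase MAP4K5 (-0.39 ± 0.067) fell too. MINK1, a kinase of the same family, rose (0.42 ± 0.068). With scaling by library size the split was 4 to 5, and the median became 0.03. The median of all tested genes then became 0.07, and 60.1% of all genes called were higher, against 50.8% in the TMM-scaled test.

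The STRIPAK complex joins protein phosphatase 2A to the Hippo kinases and keeps them off. Of its 12 genes, 5 were called higher and 4 lower (median 0.08). STRIP2 averaged 6.44 ± 0.599 CPM in the MTA1 group and 3.91 ± 0.448 CPM in Ctrl (0.72 ± 0.11), and STRN4 (0.32 ± 0.065) and the phosphatase subunit PPP2CB (0.31 ± 0.065) rose too. SIKE1 fell (-0.46 ± 0.056).

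Genes whose products hold or degrade YAP were split 5 higher and 2 lower of 13. With scaling by library size the split was 8 to 1, and on both FPKM scales it was 7 to 1. Of all genes called under these settings, 60.1% to 60.3% were higher. SFN, the epithelial 14-3-3 protein, averaged 387 ± 32.5 CPM in the MTA1 group and 588 ± 37.8 CPM in Ctrl (-0.60 ± 0.055). YWHAE, another 14-3-3 protein, rose (0.29 ± 0.043), as did the tight-junction scaffold TJP1 (0.37 ± 0.072) and the kinase CSNK1D (0.22 ± 0.051). PTPN14, a phosphatase that binds YAP and is also a YAP target, rose slightly (0.25 ± 0.063). In the list of polarity genes, protocadherins and related inputs to Hippo, 3 of 12 rose and 2 fell, with CSNK1D counted again among those that rose. That is a smaller share called (41.7%) than over all tested genes, and with scaling by library size the split was 5 to 1. FAT4 (0.87 ± 0.19) and FAT1 (0.58 ± 0.094) were higher, and LLGL2, a basolateral polarity protein, averaged 14.8 ± 0.306 CPM in the MTA1 group and 27.4 ± 0.338 CPM in Ctrl (-0.89 ± 0.055).

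The targets of SRF, an actin-linked factor, also went both ways. Of 18 tested targets of SRF and its MRTF cofactors, which are also known to act on CCN1 and CCN2, 9 rose and 5 fell. The myosin heavy chain MYH9 averaged 477 ± 25.1 CPM in the MTA1 group and 273 ± 7.42 CPM in Ctrl (0.81 ± 0.044), and FLNA (0.69 ± 0.039) and VCL (0.69 ± 0.055) rose. The myosin light chain MYL9 fell (-0.91 ± 0.062).

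Other published YAP and TAZ targets were more often higher than lower. Of 31 tested, 18 rose, 6 fell and 7 did not pass, with PTPN14 counted again among those that rose. Their median log2 fold change was 0.41 against 0.002 over all tested genes, of which 29.5% rose and 28.6% fell. IGFBP3, a binding protein of insulin-like growth factors, averaged 152 ± 9.12 CPM in the MTA1 group and 33.2 ± 0.488 CPM in Ctrl (2.20 ± 0.049). The receptor kinase AXL averaged 17.4 ± 0.0462 CPM in the MTA1 group and 7.12 ± 0.201 CPM in Ctrl (1.29 ± 0.069), and FSTL1, a secreted glycoprotein, 77.9 ± 2.52 CPM in the MTA1 group and 41.1 ± 2.03 CPM in Ctrl (0.92 ± 0.048). EDN1, the precursor of endothelin, fell as CCN1 and CCN2 did, at 2.99 ± 0.154 CPM in the MTA1 group and 7.42 ± 0.384 CPM in Ctrl (-1.31 ± 0.103). Each of these 4 genes had an edgeR adjusted p of at most 1.6e-09. Many of the targets are also controlled by other factors, and the list was written with earlier results of these libraries known.

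**Figure D4:**
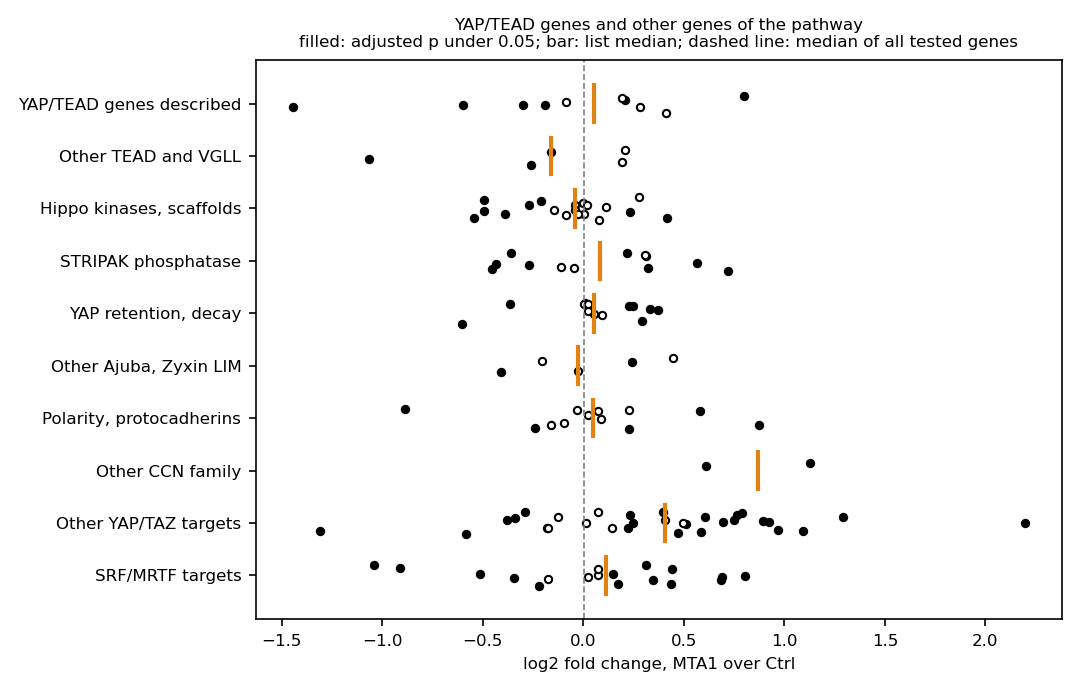
Log2 fold change of the MTA1 group over Ctrl (horizontal axis) of each tested gene, by list. Filled points passed the test, orange bars are list medians and the dashed line is the median of all tested genes. The published targets besides CCN1, CCN2 and ANKRD1 have a median of 0.41, while CCN2 lies at -1.45 and CCN1 at -0.60.

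The genes whose pattern over the 6 libraries was most like that of CCN2 were TNNC1, SLC27A2, TCIM, CCDC69 and CRIP1, out of 10657 coding genes with a mean of at least 2 CPM. Likeness was the root-mean-square distance between log2 CPM values centred on each gene's mean, and it was 0.0481 for TNNC1 and 0.10 for CRIP1. All 5 were lower in the MTA1 group, with log2 fold changes of -1.53 to -1.35. With 2 groups such a distance mostly reflects a fall of similar size.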

How the data were processed

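Total RNA of PC-3 cells was sequenced as stranded total RNA libraries (SMARTer kit, NovaSeq, paired reads), per the labels' protocols. The authors deposited raw counts per gene for 30651 genes and FPKM values, scaled by gene length and depth and rounded to 2 decimals, for all but 682 of them. For the aligner, counter, strand setting, build and annotation the sources used here give nothing, and DESeq2 is listed in the submitters' processing notes with no stated use. Column names tie shMTA1 to the MTA1 samples; NC was taken as Ctrl, which is the only group left.

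The count test was edgeR 4.0.16 under R 4.3.3 (filterByExpr, TMM, quasi-likelihood F test, group only, 2-sided, Benjamini-Hochberg over 15423 tested genes, threshold 0.05). Standard errors and 95% intervals come from this fit. The biological coefficient of variation was 4.45%. Replicates differed by 3.22 to 9.01 times the variance that counting alone gives, so no library was a copy of another. The procedure was also run on simulated data. Far fewer genes changed there and the scaling was not shifted between groups, so that run does not test the scaling used here. Levels of different genes were compared in FPKM, and their ratios by an exact permutation test. The alternatives were other scalings, filters and tests (DESeq2 1.42.0, limma 3.58.1 with voom or on log2 FPKM), a block for the replicate number, leaving out each library, leaving out the 20 most abundant genes and, added later, a minimum fold of 1.2.

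Members and lists were chosen with earlier results of these data known. Besides the 10 members, the rule named MTA1, TEAD2, TEAD3, TEAD4, LATS1, PTPN14 and AMOT. From each list it took up to 3 genes with the smallest p in the prevailing direction and 1 in the other, and it took the 5 genes most like CCN2. Further genes, such as CCN4, VGLL1, VGLL2, LIMD1, WTIP and ZYX, were named after their values were seen. 1 of the pathway lists, counted in the totals over the lists, is not reported here. RefSeq promoter windows were matched by symbol.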

Additional observations from a re-analysis of the deposited data

How the results depend on the processing

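The count of genes that passed was 8954, with 6 of the 10 members and 80 of the other pathway genes. It stayed within 1.5 times of these values under each alternative scaling, filter, test and left-out library. With a minimum fold of 1.2, added after the data were seen, it was 4650 genes, 3 members and 45 pathway genes. CCN2, CCN1, AJUBA and WWTR1 kept direction and call under every alternative listed, except that WWTR1 did not pass the minimum fold. Without MTA1 replicate 1 AMOTL1 stood at -0.016, and over the left-out libraries it ran from -0.02 to 0.41. The difference in the log2 ratio of AMOTL1 to AMOTL2 (-0.01) ran from -0.28 to 0.23 when a library was left out. The cause was not tested. Of 178 values of members under alternatives, 159 kept direction and side of the threshold. With the replicate block 9139 genes, 7 members and 82 pathway genes passed; the added member was AMOTL2. Deviations of same-numbered libraries correlated at 0.067, -0.021 and 0.019, and 1 of 3 MTA1 libraries correlated best with its own number, so the numbers were not taken as pairs. AMOTL1, ANKRD1 and LATS2 had at most 56 counts in a library, which limits what could be detected for them.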

Other observations

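Some members share their place in the genome with transcripts of the other strand, and whether the counts use strand is not given. In GENCODE release 29 the antisense gene WWTR1-AS1 overlaps exons of WWTR1. It had 32, 27 and 27 counts in the MTA1 group, against 36, 31 and 28 counts in Ctrl, while WWTR1 had 810, 893 and 753 counts in the MTA1 group, against 722, 743 and 739 counts in Ctrl.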
